A study of Mus musculus with 14 samples.

Results

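Satellite cells are the stem cells of skeletal muscle, and myoblasts are the committed muscle precursors they give rise to after injury. The genes described here are 9 genes that mark this lineage: Pax7, Myf5, Myod1, Myog, Mymk, Mymx, Cdh15, Chrna1 and Myh3. They were picked by name, not by any measured value, and matched on gene symbol in both deposited tables. All 9 were found among the 56953 genes of the BaCl2 table and 6 among the 14330 genes of the glycerol table. Pax7, Myf5 and Mymx after glycerol were not analysed here.

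The libraries came from fibro-adipogenic progenitors (FAPs), which are mesenchymal stromal cells of muscle, so these genes belong to another cell type than the one sorted. The FAPs were isolated by MACS, a magnetic sort with antibodies that the labels do not name, from the tibialis anterior (TA) muscle of mice at 3 days after injury. The injury was BaCl2, a salt that destroys muscle fibres, or glycerol, which also destroys fibres and is followed by fat deposition. After BaCl2 there were 3 libraries labelled SMA, taken to mean spinal muscular atrophy, and 3 labelled WT, and after glycerol 4 of each, 14 in all. All groups thus share an injury by 1 of these agents, the day, the muscle and the sort, and no uninjured group is part of the series as given here. The labels give neither the SMA allele nor the age or sex of the mice, and nothing says that replicates were separate animals. P-values therefore set a difference between genotypes only against the spread of these libraries, part of which may be technical rather than between animals. In the labels each injury is also a batch of its own, and a batch effect cannot be told apart from an effect of the injury.

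Myf5 is an early myogenic factor of this lineage. In resting muscle, Pax7 marks satellite cells, and on injury these cells switch on Myod1 and divide. Myog then drives their exit from division into differentiation, and the membrane proteins encoded by Mymk and Mymx fuse the myoblasts into fibres. New fibres carry acetylcholine receptors, of which Chrna1 encodes the alpha subunit, and the embryonic myosin heavy chain encoded by Myh3, while Cdh15 encodes M-cadherin, an adhesion protein of satellite cells and myoblasts. The myogenic factors Myf5, Myod1 and Myog are basic helix-loop-helix proteins, which bind DNA together with E proteins at the E-box, written CANNTG.

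Promoters of Chrna1 and Myog are shown because both genes are known targets of these factors and because both varied with Myod1 across the libraries, as described further on. The sequences are the 250 bases before the RefSeq gene start in build GRCm38.p6, written 5′ to 3′ on the strand of the gene, with the E-box letters CANNTG in capitals. The Chrna1 window lies at chr2:73580339-73580588 on the minus strand and the Myog window at chr1:134289754-134290003 on the plus strand.
Chrna1: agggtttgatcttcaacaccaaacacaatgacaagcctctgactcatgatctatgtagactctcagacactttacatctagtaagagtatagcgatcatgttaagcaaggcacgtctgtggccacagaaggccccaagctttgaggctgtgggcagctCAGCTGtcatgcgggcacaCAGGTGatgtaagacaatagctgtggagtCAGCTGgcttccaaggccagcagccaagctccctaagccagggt
Myog: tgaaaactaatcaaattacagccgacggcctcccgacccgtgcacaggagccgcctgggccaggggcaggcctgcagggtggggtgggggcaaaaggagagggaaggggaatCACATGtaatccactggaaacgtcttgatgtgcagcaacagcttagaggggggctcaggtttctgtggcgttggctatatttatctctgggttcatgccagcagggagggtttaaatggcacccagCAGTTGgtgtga
The Chrna1 window holds 3 E-boxes, CAGCTG with its first base 92 bases before the start, CAGGTG at 73 and CAGCTG at 44. The Myog window holds 2, CACATG at 138 and CAGTTG at 12. The motif is its own reverse complement in the fixed letters, so both strands were searched at once. Among 32851 RefSeq promoter windows of the same length, 66.2% held at least 1 CANNTG and 12.2% held 3 or more. CAGCTG was present in 13% of the windows, and 1.26% held it 2 or more times, as Chrna1 does. A match is a description of the letters, not evidence of binding. RefSeq windows were found for 6 of the 9 genes; that of Cdh15, a gene that also varied with Myod1, held 3 CANNTG and no CAGCTG, that of Myh3 held 1 CANNTG, and those of Pax7 and Myf5 held none.

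The libraries carried the markers of FAPs at high level, and the genes of the myogenic lineage were low. After BaCl2, Pdgfra, the receptor gene that defines FAPs, had a mean level of 882 CPM (counts per M of the TMM-scaled library size; M, mega). Per kb of exon that is 88.0 CPM per kb (71.2 to 101.2 over the 6 libraries). The 9 satellite cell and myoblast genes had a median of 0.0837 CPM per kb on the same scale, against 261 for 6 FAP markers and 24.9 for 6 macrophage markers. The median was 4.74 for 5 endothelial markers, 1.01 for 5 pericyte and smooth muscle markers, 0.970 for 5 Schwann cell markers and 0.0879 for 10 myofibre markers. Single markers spread widely: the macrophage marker Lyz2 was at 704, above Pdgfra, and the Schwann cell marker Sox10 at 0.0741, within the range of the 9 genes. None of these markers was at 0 in every library. The libraries held 97.7 to 136.4 M counts, so that 3 counts correspond to 0.0220 to 0.0294 CPM. Pax7, Myf5, Mymk and Mymx had libraries near or below that floor, whereas the lowest library of Cdh15 was at 0.294 CPM and that of Chrna1 at 0.573 CPM.

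**Figure D1:**
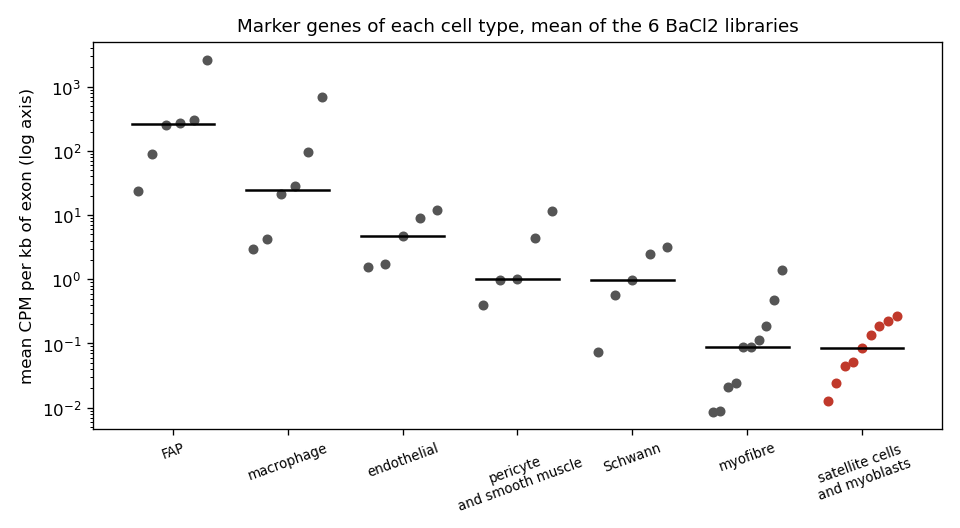
Mean level of each cell type marker after BaCl2 in CPM per kb of exon on a log axis, 1 point per gene and 1 column per cell type, with lines at the medians. The 9 satellite cell and myoblast genes lie between 0.0129 and 0.273 CPM per kb, below all 6 FAP markers (24.0 or more).

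Per kb of exon, Myog was highest at a mean of 0.273 CPM per kb (0.101 to 0.579 over the 6 BaCl2 libraries). Myod1 followed at 0.224 (0.0836 to 0.507), Chrna1 at 0.184 (0.131 to 0.291) and Cdh15 at 0.137 (0.0904 to 0.204). Below them came Myh3 at 0.0837 (0.0212 to 0.162), Mymk at 0.0518 (0.0130 to 0.0873), Mymx at 0.0439 (0 to 0.118), Myf5 at 0.0244 (0 to 0.0520) and Pax7 at 0.0129 (0.00668 to 0.0211). The ranges of any 2 neighbours in this order overlapped. The ranges of the 4 highest genes all lay above the range of Pax7. In these bulk libraries, fewer cells of a type and less RNA per cell cannot be told apart.

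Smn1, the survival motor neuron gene whose loss causes spinal muscular atrophy, was lower in the SMA libraries of both injuries. It averaged 16.1 ± 0.937 CPM in the WT and 11.1 ± 1.001 CPM in the SMA libraries after BaCl2 (SD, n = 3 each). After glycerol it averaged 1084 ± 113 and 745 ± 75.9 normalized counts (SD, n = 4 each). The log2 fold change was -0.54 in both tables, with adjusted p = 0.0131 (edgeR) and 0.0364 (limma). The genotypes did not overlap, as for 25.3% of all genes tested after BaCl2 and 14.1% after glycerol. Without SMA library 2, SMA library 4, WT library 1 or WT library 3, limma found 0 genes at an adjusted p under 0.05 after glycerol. The glycerol result for Smn1 thus did not pass in those fits either.

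None of the 6 satellite cell and myoblast genes fitted in both injuries differed between SMA and WT beyond the spread of the libraries. Few genes of any kind were called, so 0 of 6 does not set these genes apart. Pax7, Myf5 and Mymx did not pass the filter on low counts after BaCl2 and were not analysed after glycerol. After BaCl2, 0 of the 6 genes that passed the filter on low counts (Myod1, Myog, Mymk, Cdh15, Chrna1 and Myh3) were called by edgeR at an adjusted p under 0.05, against a background of 4.29% of 20119 genes tested (2.73% higher and 1.56% lower in SMA). With this test 0 of the 6 had an unadjusted p under 0.05, and DESeq2 also called 0, with 0 at an unadjusted p under 0.05. After glycerol, limma called 0 of 6, with 0 at an unadjusted p under 0.05, against a background of 2.87% of 14330 genes (1.7% higher and 1.17% lower in SMA). These background shares rest on single libraries. The 863 genes called after BaCl2 became 559, 145 and 1577 without SMA libraries 1, 2 and 3, and 663, 163 and 41 without WT libraries 1, 2 and 3. The 411 called after glycerol became 3, 0, 1645 and 0 without SMA libraries 1 to 4, and 0, 3, 0 and 82 without WT libraries 1 to 4. The genotypes overlapped for each of these 6 genes in both injuries, whereas they did not overlap for 25.3% of all genes tested after BaCl2 and 14.1% after glycerol. The median log2 fold change of the 6 genes was 0.41 after BaCl2 and 0.10 after glycerol, against -0.003 and 0 over all genes tested. At these low counts the standard errors are wide, and a p that misses the threshold does not show that the genotypes were alike.

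**Figure D2:**
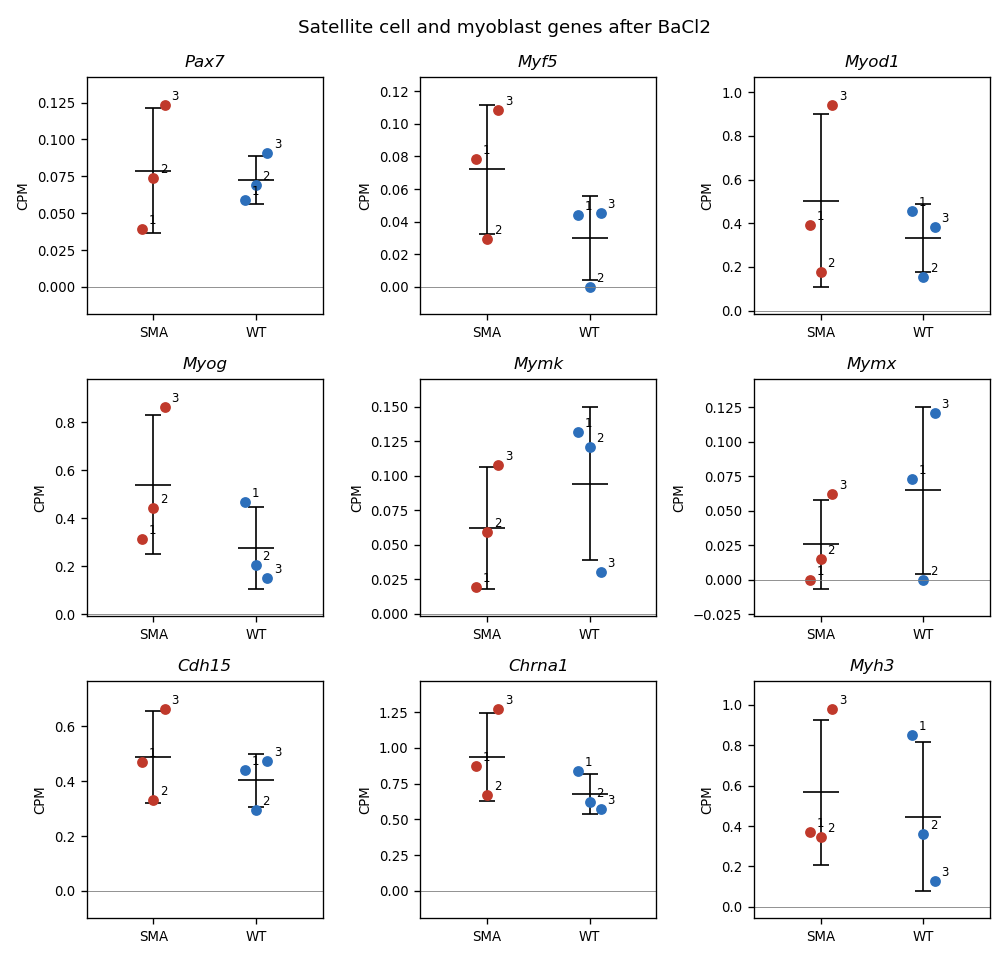
CPM of each of the 9 genes in the 3 SMA and 3 WT libraries after BaCl2, on linear axes. Numbers beside the points are replicate numbers, bars are the mean and SD; SMA library 3 is the highest point in 7 of the 9 panels.

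Pax7, the marker of satellite cells, had 58 counts in all 6 BaCl2 libraries together. It had 4, 10 and 16 counts in SMA libraries 1, 2 and 3, and 8, 8 and 12 counts in WT libraries 1, 2 and 3. Scaled for depth this was 0.0788 ± 0.0425 CPM in SMA and 0.0728 ± 0.0162 CPM in WT (SD, n = 3 each), so the means lay closer together than the libraries within SMA. Myf5, the early myogenic factor, had 8, 4 and 14 counts in the SMA libraries and 6, 0 and 6 in the WT libraries. WT library 2 had none, which at this depth allows up to 0.0259 CPM. The Myf5 means were 0.0720 ± 0.0398 CPM in SMA and 0.0298 ± 0.0258 CPM in WT (SD, n = 3 each). The two-sided exact permutation test of CPM gave p = 0.8 for Pax7 and 0.3 for Myf5, where 3 against 3 cannot go below 0.1. Neither gene passed the filter on low counts. In the edgeR fit without that filter, their log2 fold changes were 0.13 (adjusted p = 0.974) and 1.23 (adjusted p = 0.658).

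Myod1, the factor of activated satellite cells and dividing myoblasts, was at 0.392, 0.177 and 0.943 CPM in SMA libraries 1 to 3 and at 0.455, 0.156 and 0.385 CPM in WT libraries 1 to 3 after BaCl2. SMA library 3 held 122 of its counts, more than any other library, while SMA library 2 and WT library 2 were both low. The log2 fold change was 0.60 (SE 0.59, edgeR adjusted p = 0.652). Without SMA library 3 it was -0.24, so the sign of the BaCl2 value rests on that library. After glycerol, Myod1 was at 66.1, 66.7, 43.1 and 13.7 normalized counts in SMA libraries 1 to 4 and at 41.1, 44.2, 57.3 and 84.4 in WT libraries 1 to 4. The lowest value was in SMA and the highest in WT, and the others interleaved. The log2 fold change was -0.42 on the log2(value + 1) scale (SE 0.49, limma adjusted p = 0.644), and 0.08 without SMA library 4.

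Myog, the factor of differentiating myoblasts, had the largest log2 fold change of the 6 genes after BaCl2, yet its genotypes overlapped. It was at 0.313, 0.442 and 0.866 CPM in the SMA libraries and at 0.469, 0.208 and 0.151 CPM in the WT libraries. The means were 0.540 ± 0.289 CPM and 0.276 ± 0.170 CPM (SD, n = 3 each). WT library 1 lay above 2 of the 3 SMA libraries. The log2 fold change was 0.97 (SE 0.51, edgeR adjusted p = 0.341), and it ranged from 0.46 to 1.60 with each library left out in turn, lowest without SMA library 3 and highest without WT library 1. After glycerol, Myog was at 141.9, 106, 48.6 and 37.5 normalized counts in SMA and at 28.3, 28.6, 89.5 and 102.0 in WT. Both genotypes split into a higher and a lower pair of libraries, and the pairs interleave. The log2 fold change was 0.46 (SE 0.56, limma adjusted p = 0.66).

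The fusion genes were near the low end of the order in CPM per kb. Mymk, which encodes Myomaker, had 2, 8 and 14 counts in the SMA libraries and 18, 14 and 4 in the WT libraries after BaCl2. Its log2 fold change was -0.56 (SE 0.77, edgeR adjusted p = 0.762), -0.17 without SMA library 1 and -1.19 without SMA library 3. Mymk was the 1 gene of the 6 with a negative value after BaCl2, but SMA library 3 matched WT library 2 in counts and WT library 3 lay below it. Mymx, which encodes Myomerger (also called Myomixer), had 0, 2 and 8 counts in SMA and 10, 0 and 16 in WT, with an exact permutation p of 0.5 (smallest possible 0.1). SMA library 1 and WT library 2 had none, which allows up to 0.0294 and 0.0259 CPM. In the edgeR fit without the filter on low counts, the Mymx log2 fold change was -1.28 (adjusted p = 0.666). After glycerol, Mymk was at 23.9, 18.5, 7.51 and 15.6 normalized counts in SMA and at 8.43, 10.6, 26.6 and 18.7 in WT. The means of 16.4 ± 6.84 and 16.1 ± 8.28 (SD, n = 4 each) nearly coincided, with a log2 fold change of 0.05 (SE 0.47, limma adjusted p = 0.966).

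Cdh15 and Chrna1 varied least between libraries, the highest BaCl2 library having 2.26 and 2.22 times the CPM of the lowest. Cdh15 was at 0.470, 0.331 and 0.665 CPM in SMA and at 0.440, 0.294 and 0.475 CPM in WT after BaCl2, with a log2 fold change of 0.27 (SE 0.36, edgeR adjusted p = 0.75). Without SMA library 3 the value was -0.01. After glycerol it was at 75.5, 49.5, 36.5 and 48.7 normalized counts in SMA and at 27.5, 48.7, 52.0 and 61.2 in WT, with a log2 fold change of 0.16 (SE 0.31, limma adjusted p = 0.797). SMA library 1 was the highest and WT library 1 the lowest, and the other 6 libraries intermingled. An annotated readthrough gene overlaps Cdh15 in GENCODE vM21, so its reads could be split by the counting.

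Chrna1, the acetylcholine receptor subunit gene, was at 0.872, 0.670 and 1.28 CPM in SMA and at 0.836, 0.623 and 0.573 CPM in WT after BaCl2. All 3 SMA libraries exceeded WT libraries 2 and 3, but WT library 1 exceeded SMA library 2. The log2 fold change was 0.47 (SE 0.30, edgeR adjusted p = 0.434), and 0.19 without SMA library 3. After glycerol Chrna1 was at 127, 167, 108 and 63.7 normalized counts in SMA and at 106, 81.7, 124 and 161 in WT, with a log2 fold change of -0.06 (SE 0.31, limma adjusted p = 0.934). The lowest and the highest library were both SMA.

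Myh3, the embryonic myosin gene of new fibres, was the most uneven of the 6 fitted genes. It had 38, 47 and 127 counts in the SMA libraries and 116, 42 and 17 in the WT libraries after BaCl2, so that the highest library was SMA and the next was WT. Its log2 fold change was 0.34 (SE 0.62, edgeR adjusted p = 0.831), -0.31 without SMA library 3 and -0.10 without WT library 3. In the glycerol table it was listed at 119, 0, 52.0 and 0 normalized counts in SMA and at 0, 0, 180.1 and 0 in WT. Whether a listed 0 there means that no RNA was present is not known. In all, 35 genes were listed at 0 in at least 1 glycerol library, and 9 of these had a mean over 100 normalized counts. Among the 9 was Nnt, a mitochondrial enzyme gene with a mean of 553, listed at 0 in 1 library. The cause of these zeros was not tested. The fitted log2 fold change of 1.28 (SE 2.16, limma adjusted p = 0.759) depends on the pseudocount, being 0.52 with 10 and 2.11 with 0.1. It ran from 0.03 without SMA library 1 to 3.16 without WT library 3, and in the authors' deposited table it is -0.07. Myh3 lies in a cluster of similar myosin heavy chain genes, so its reads are uncertain where the counting could split them.

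**Figure D3:**
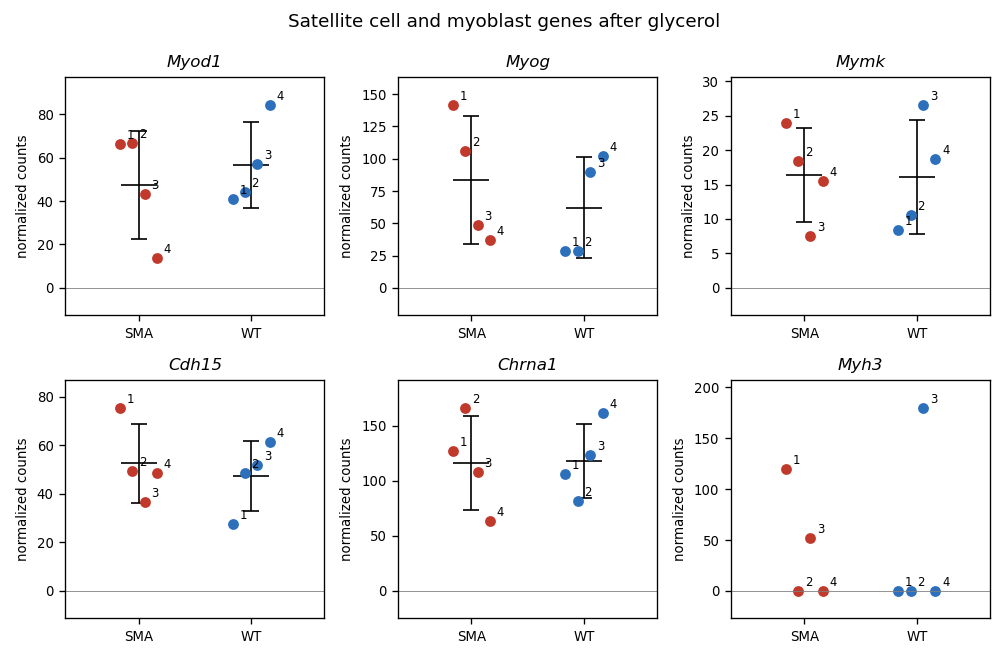
Normalized counts of the 6 genes listed in the glycerol table, in 4 SMA and 4 WT libraries, on linear axes. Numbers are replicate numbers, bars are the mean and SD (not drawn for Myh3, listed at 0 in 5 of 8 libraries); the genotypes overlap in every panel.

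The genotype effect was not shown to differ between the injuries for any of the 6 genes fitted in both. The z test of the difference between the log2 fold changes called 0 of 6, against a background of 10.5% of 13960 genes, and 0 had an unadjusted p under 0.05. One limma fit of all libraries with an interaction term also called 0 of the 6, and 53 of the 13960 genes. The z test used a normal reference for SEs from few libraries, so the 10.5% is not a firm share. The largest differences, glycerol minus BaCl2, were -1.02 for Myod1 (SE 0.76, adjusted p = 0.433) and 0.94 for Myh3 (SE 2.24, adjusted p = 0.849). Those of Myog (-0.50, SE 0.76), Chrna1 (-0.53, SE 0.43), Mymk (0.61, SE 0.90) and Cdh15 (-0.12, SE 0.47) had adjusted p-values of 0.74, 0.476, 0.732 and 0.919.

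**Figure D4:**
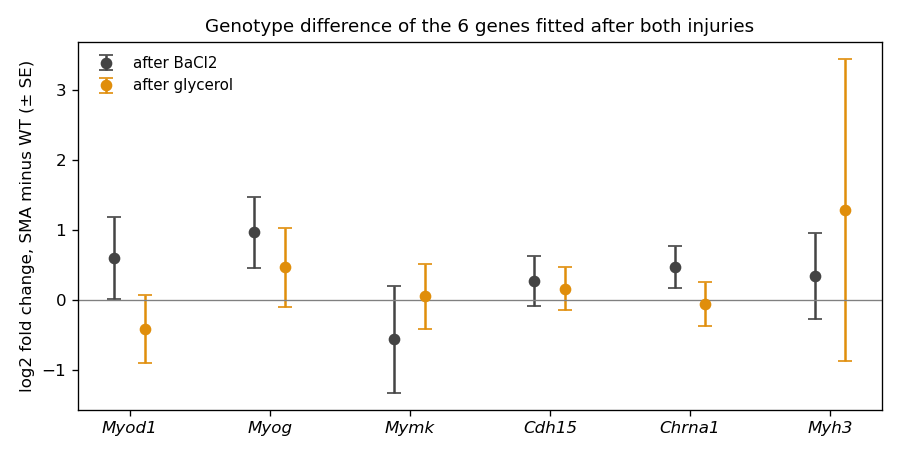
Log2 fold change, SMA minus WT, with its SE for the 6 genes fitted after both injuries (edgeR on counts after BaCl2, limma on log2(value + 1) after glycerol). Values run from -0.56 (Mymk) to 0.97 (Myog) after BaCl2 and from -0.42 (Myod1) to 1.28 (Myh3) after glycerol.

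The authors' deposited table holds 1759 genes at an adjusted p under 0.05 after glycerol and 0 of these 6, whose adjusted p there runs from 0.681 (Myog) to 0.995 (Myh3). For BaCl2, the authors' deposited table gives no fold change or p for any of the 9 genes.

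The genes also varied from library to library within each genotype. After BaCl2, SMA library 3 had the highest CPM for 7 of the 9 genes, the exceptions being Mymk (WT library 1) and Mymx (WT library 3). The summed CPM of the 9 genes was 5.13 in SMA library 3, 2.56 and 2.14 in SMA libraries 1 and 2, and 3.36, 1.83 and 1.999 in WT libraries 1 to 3. After glycerol the sum over 6 genes was 554, 408, 296 and 179 normalized counts in SMA and 211, 214, 529 and 428 in WT. The highest sum of a genotype after glycerol was over 2 times its lowest in both SMA and WT.

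Some markers of other cell types moved with these sums and others did not. The summed CPM of 6 macrophage markers was 2123, 1710 and 1437 in SMA libraries 1 to 3 after BaCl2, so SMA library 3 was the lowest of the SMA libraries. In WT it was 1083, 798 and 871 CPM. After glycerol it was 157400, 180750, 85126 and 205310 normalized counts in SMA libraries 1 to 4. In WT libraries 1 to 4 it was then 99354, 76012, 84248 and 100000. After BaCl2 the sum of 5 Schwann cell markers was highest in SMA library 3, at 29.3, 24.5 and 30.8 CPM in SMA libraries 1 to 3 and 18.1, 12.6 and 17.0 CPM in WT. After glycerol, 4 listed Schwann cell markers summed to 1106, 1296, 1478 and 1282 normalized counts in SMA. In WT they summed to 942, 1149, 844 and 1059. SMA library 1 and WT library 3 were there the lowest of their genotype, unlike their sums over the 6 satellite cell and myoblast genes. The 5 endothelial markers and the 5 pericyte and smooth muscle markers had their highest sums in SMA library 2 after BaCl2 (201 and 159 CPM). After glycerol their highest sums were in WT library 4 (12986 and 9101 normalized counts). The sum of 10 myofibre markers after BaCl2 was 5.27, 3.24 and 4.47 CPM in SMA and 4.33, 3.77 and 4.37 CPM in WT, highest in SMA library 1. After glycerol, 7 listed myofibre markers summed to 439.8, 409, 320.4 and 374 normalized counts in SMA and to 339, 282, 434 and 381 in WT. SMA library 1 and WT library 3 were the highest for these markers, as they were for the sum of the 6 satellite cell and myoblast genes. For WT library 3 that sum included 180.1 normalized counts of Myh3, which was listed at 0 in the other WT libraries. Myod1, Myog, Cdh15 and Chrna1 were each higher in WT library 4 than in WT library 3, and Mymk was lower. After BaCl2 the 6 FAP markers summed to 22406 to 27122 CPM in SMA and 32283 to 35722 CPM in WT. Most of this sum was Col3a1 (mean 25613 CPM), which was lower in SMA (log2 fold change -0.49, edgeR adjusted p = 0.0148). Of the 6 markers, 3 were called lower in SMA and 3 were not called, among them Pdgfra (-0.04, edgeR adjusted p = 0.889). After glycerol the 6 summed to 1999400 to 2461700 normalized counts in SMA and 1859600 to 2684900 in WT, which overlap. Per 1000 summed FAP counts, the 9 genes summed to 0.0862 to 0.189 in SMA and 0.0513 to 0.104 in WT after BaCl2, and the 6 genes to 0.0728 to 0.264 and 0.0940 to 0.285 after glycerol, overlapping in both. The part of these shifts in the values above was not tested.

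Several of the genes rose and fell together across libraries. Over the 14 libraries, as deviations from the mean of each injury on the log2 scale, Myod1 and Chrna1 had a Pearson correlation of 0.85 (0.80 over 6 BaCl2 and 0.90 over 8 glycerol libraries). Myog and Chrna1, whose promoter windows are shown above, had 0.81 (0.87 and 0.77), and Myod1 and Myog 0.61 (0.56 and 0.66). Cdh15 had 0.63 with Myod1, with unlike values in the injuries (0.98 after BaCl2 and 0.34 after glycerol), and 0.64 with Myog (0.49 and 0.75). Mymk had 0.58 with Myog (0.44 and 0.80) and 0.15 with Myod1 (0.02 and 0.33). These are descriptions of 15 pairs without a test: the points share their library and its depth, both genotypes are pooled, and counts are low. Myh3, listed at 0 in 5 glycerol libraries, had 0.25 with Chrna1 over 14 libraries and 0.82 over the 6 BaCl2 libraries.

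**Figure D5:**
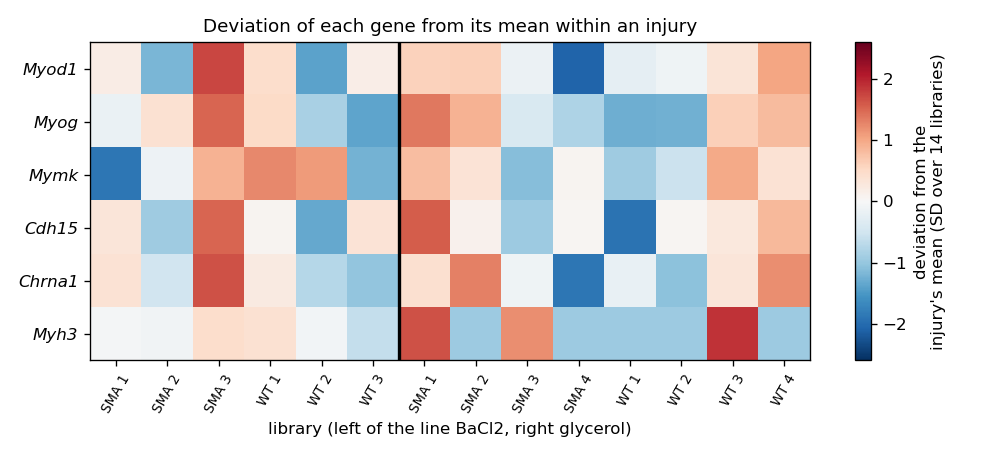
Deviation of each of the 6 genes from its injury's mean in every library, in SDs over the 14 libraries, coloured from low to high. SMA library 3 after BaCl2 and SMA library 1 after glycerol are high for most genes, with mean deviations of 1.30 and 1.07; SMA library 4 and WT library 1 after glycerol are low (-0.94 and -0.92).

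A mean profile of the 6 genes was used to look for genes of like pattern among 10510 genes whose mean reached 1 CPM after BaCl2 and lay above the lower quartile of the means after glycerol. Myh3 counted in it like the other genes. Its standardized deviation after glycerol was -0.948 in each library where it was listed at 0, and 1.21 to 1.88 in the others. How far Myh3 shaped the ranking was not tested. Among the 10 highest correlations over 14 libraries were those of Cep20 (0.84), E2f6 (0.79), Hey1 (0.78), Gucy1b1 (0.73), Zfp451 (0.72), Pde7a (0.70), Zbtb25 (0.68), Ikzf5 (0.67) and Irak1bp1 (0.67). Hey1, a transcriptional repressor induced by Notch signalling, is on a list of other satellite cell genes used below. The 100 highest of the 10510 ranked genes held 2 of the 15 ranked genes of that list (Hey1 and Itga7, the integrin alpha 7 subunit gene, at 0.60). They held 0 of 12 differentiation and fusion genes and 0 of 20 partners and inhibitors of the myogenic factors. Hey1 averaged 6.71 CPM after BaCl2, against 0.418 CPM for Myod1. Among ranked pericyte and smooth muscle markers, Myh11 had a correlation of 0.51, Rgs5 0.26, Cspg4 0.12 and Abcc9 -0.09. Which cell type the Hey1 and Itga7 RNA came from was not tested. With deviations taken from the mean of each injury and genotype, 4 of the 10 highest genes stayed in the top 10 and all 10 in the top 100. With this many genes ranked over 14 libraries, high values arise readily, and no test was made.

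Ratios of 2 genes within a library cancel its depth and follow the lineage from 1 stage to the next. After BaCl2, the ratio of Mymk to Myog counts was 0.0625, 0.133 and 0.125 in SMA and 0.281, 0.583 and 0.200 in WT. All 3 SMA ratios lay below all 3 WT ratios, a log2 difference of -1.66, with an exact permutation p of 0.1, the smallest possible, and 0.343 after adjustment over 6 ratios. These ratios rest on 2 to 18 Mymk counts per library. After glycerol the ratio was 0.169, 0.174, 0.154 and 0.415 in SMA and 0.298, 0.372, 0.297 and 0.183 in WT, which overlap (log2 difference -0.42, exact permutation p = 0.371, adjusted p = 0.557). The ratio of Myog to Myod1 had a log2 difference of 0.59 after BaCl2 (exact permutation p = 0.6, adjusted p = 0.6), which was 0.07 without SMA library 2 and 0.06 without WT library 3, and of 0.91 after glycerol (exact permutation p = 0.114, adjusted p = 0.343). In SMA after glycerol it was 2.15, 1.59, 1.13 and 2.73, and in WT 0.689, 0.647, 1.56 and 1.21, so that WT libraries 3 and 4 exceeded SMA library 3. The ratio of Pax7 to Myod1 (log2 difference -0.43, adjusted p = 0.6) and that of Myh3 to Myog (-0.45, adjusted p = 0.557) after BaCl2 also overlapped between genotypes, by the same exact permutation test.

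The wider programme of the lineage was read from 4 gene lists, given as counts beside the background shares above. Of 22 other satellite cell genes, 20 were tested in each injury. After BaCl2, 1 rose in SMA and 3 fell by edgeR, with a median log2 fold change of -0.02. Cxcr4, a chemokine receptor gene of many migrating cells including leukocytes, rose from 27.8 ± 5.62 to 49.4 ± 2.42 CPM (SD, n = 3 each; log2 fold change 0.83, edgeR adjusted p = 0.00945). Des, the muscle intermediate filament gene that pericytes and smooth muscle also express, fell from 43.3 ± 5.60 to 25.8 ± 1.605 CPM (-0.75, edgeR adjusted p = 0.00597). Six4, a homeobox factor gene (-0.43, edgeR adjusted p = 0.0225), and Spry1, an inhibitor of growth factor signalling (-0.48, edgeR adjusted p = 0.0493), fell too. After glycerol, 1 of the 20 rose and 0 fell, with a median of 0.06. It was Met, the hepatocyte growth factor receptor gene, at 697 ± 68.1 against 467 ± 72.3 normalized counts (SD, n = 4 each; 0.58, limma adjusted p = 0.044). Cxcr4 was higher in SMA after glycerol too, at 1.09 (limma adjusted p = 0.052), and Met after BaCl2, at 0.285 (edgeR adjusted p = 0.185). In both cases the genotypes did not overlap, as for 14.1% of all genes after glycerol and 25.3% after BaCl2. Des (0.05), Six4 (-0.22) and Spry1 (-0.09) overlapped between genotypes after glycerol. The call for Des held with each library left out. That for Cxcr4 was lost without WT library 3 (adjusted p = 0.0606), that for Six4 in 3 of 6 such fits (SMA library 2, WT library 2 or WT library 3), that for Spry1 in 5 of 6 (all but SMA library 3), and that for Met in 6 of 8 (all but SMA library 3 and WT library 4). All 6 macrophage markers rose in SMA after BaCl2 (median log2 fold change 0.94), as did 2 of 5 Schwann cell markers and 1 of 5 pericyte and smooth muscle markers, while 3 of 6 FAP markers fell. Their part in the BaCl2 results of these lists was not tested.

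Of 32 other differentiation and fusion genes, 28 were tested. After BaCl2, 1 rose and 0 fell, with a median of 0.06. It was Cdkn1a, a cell cycle inhibitor gene used by many cell types, at 158 ± 19.0 CPM in SMA and 123 ± 6.30 CPM in WT (SD, n = 3 each; 0.36, edgeR adjusted p = 0.0479). After glycerol, 1 rose and 1 fell, with a median of -0.08. Cdkn1c, another cell cycle inhibitor gene, rose (0.94, limma adjusted p = 0.0393), and Dysf, which encodes the membrane repair protein dysferlin, fell (-0.73, limma adjusted p = 0.0299). Cdkn1a was higher in SMA after glycerol too, at 0.41 (limma adjusted p = 0.0834), without overlap of the genotypes. Cdkn1c (-0.26) and Dysf (-0.045) overlapped between genotypes after BaCl2. The Cdkn1a call was lost in 5 of 6 fits that left a library out (all but SMA library 3), and the Cdkn1c and Dysf calls in 7 of 8 (all but SMA library 3). After glycerol 2 of 6 macrophage markers rose and 1 of 5 endothelial markers fell, and their part in the glycerol results of these lists was not tested.

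Of 22 partners and inhibitors of the myogenic factors, 21 were tested. After BaCl2, 1 rose and 3 fell, with a median of -0.13. Snai2 and Twist1, repressors that mesenchymal cells express, fell from 18.1 ± 1.38 to 11.1 ± 0.308 CPM (-0.70, edgeR adjusted p = 0.00455) and from 71.7 ± 3.16 to 53.1 ± 1.77 CPM (-0.43, edgeR adjusted p = 0.00666; SD, n = 3 each). The inhibitors of helix-loop-helix factors went opposite ways: Id2 rose (0.52, edgeR adjusted p = 0.0258) and Id3 fell (-0.28, edgeR adjusted p = 0.0461). The Snai2 call held with each library left out. Twist1 lost its call without WT library 3 (adjusted p = 0.0569), Id2 in 4 of 6 such fits (all but SMA library 3 and WT library 1) and Id3 in all 6. After glycerol 0 of the 21 were called by limma, with 3 at an unadjusted p under 0.05 and a median of -0.03. There Id2 was at 0.635 (limma adjusted p = 0.107), Snai2 at 0.17, Id3 at 0.07 and Twist1 at 0, all with overlap of the genotypes.

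Of 18 mature myofibre genes, 15 were tested after BaCl2 and 11 after glycerol. None was called in either (edgeR and limma, 0 at an unadjusted p under 0.05), with medians of 0.06 and 0.09. The highest were Eno3, the muscle enolase gene, at 5.85 ± 0.159 CPM in SMA and 5.60 ± 0.352 CPM in WT, Neb, the nebulin gene, at 2.10 ± 0.183 and 2.38 ± 0.418 CPM, and Tnnt3, a fast troponin gene, at 2.18 ± 0.423 and 2.19 ± 0.179 CPM (SD, n = 3 each).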

How the data were processed

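RNA from FAPs was extracted without culture, poly(A)-selected and made into directional libraries, per the labels' protocols. The submitters' processing notes name fastp, Salmon, featureCounts and DESeq2 without roles or versions. Not given in the sources used here are the aligner, genome build and annotation. For BaCl2 the authors deposited whole-number counts per gene, and for glycerol a signal they had already normalized (normalized counts, whose row means equal the base mean per the file headers), so its depth is unknown. Log2 fold changes, p-values and score columns (standard error and test statistic) of the deposited tables are the authors' own per the file headers. A further 6 columns of per-sample values were not used.

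Counts were scaled by TMM, low genes removed with filterByExpr, and SMA compared with WT by the edgeR 4.0.16 quasi-likelihood test. Glycerol values were fitted as log2(value + 1) with limma 3.58.1 (trend). Each SE of an edgeR fold change was derived from its F statistic. Fits ran over all genes, with Benjamini-Hochberg adjustment and a threshold of 0.05, in R 4.3.3. The scripts were tested on simulated data. The difference between injuries was a z test of the 2 fold changes. Exact permutation tests used scipy 1.17.1. Exon lengths came from GENCODE vM21. The low BaCl2 counts were mostly even (69.5% to 71.8% of counts from 6 to 20, against 49% to 50.9% of counts from 101 to 1000), so intervals and floors, which cover counting error only, may be too narrow.

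The genes and lists were chosen with earlier results of these data known. All 9 genes were named. From each list, genes passing in either injury were named, at most 6 per injury, or the 3 highest where none passed; from the pattern ranking, the top 10 without predicted genes, of which 1 is not reported here. Smn1 and Pdgfra were always named. Alternatives were DESeq2 1.42.0, other size factors, no filter on low counts, a filter on glycerol means, other pseudocounts, a rescaling, a joint fit, a replicate block, SMA libraries 1 and 2 left out together, and each library left out in turn. Leaving libraries out of the ratios was chosen after seeing the data.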

Additional observations from a re-analysis of the deposited data

Results flagged for a closer look

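In the glycerol table, Myh3 was listed at 180.1 normalized counts in WT library 3 while the other 3 WT libraries were listed at 0, a gap that is the whole range of the group. The log2 ratio of Mymk to Myog was -1.27 in SMA library 4 after glycerol, far above the other 3 SMA libraries (-2.53 to -2.70). Of 16 groups of 4 libraries looked at this way, chance alone would single out about 1 in 20.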

How the results depend on the processing

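No satellite cell or myoblast gene was called under any alternative run, in either injury or for the difference between them. The calls over all genes moved more: after BaCl2 from 863 to 1752 with DESeq2, 1867 without the filter on low counts and 108 with SMA libraries 1 and 2 left out together (the lone SMA library is then assumed to vary like the WT libraries), after glycerol from 411 to 257 with the replicate block, and for the difference from 1470 to 53 in the joint limma fit. With each library left out in turn they ranged from 41 to 1577 after BaCl2, from 0 to 1645 after glycerol and from 1004 to 1969 for the difference. For Pax7, Myf5 and Mymx the log2 fold changes given gene by gene in the results above are those of the fit without the filter. In it, Myog had an unadjusted p under 0.05 after BaCl2 (adjusted p = 0.224). Genes of the 9 at an unadjusted p under 0.05 also numbered 3 with SMA libraries 1 and 2 left out together, 1 without SMA library 1 and 1 without WT library 1 after BaCl2, and 1 for the difference without SMA library 2 after BaCl2. The sign of several log2 fold changes rested on single libraries. With each library left out in turn, it ranged after BaCl2 from -0.24 to 1.01 for Myod1, from -0.01 to 0.43 for Pax7 (in the 4 of 6 fits where it passed the filter), from -0.01 to 0.50 for Cdh15 and from -0.31 to 1.22 for Myh3. After glycerol it ranged from -0.66 to 0.08 for Myod1, from -0.19 to 0.36 for Mymk, from -0.08 to 0.31 for Cdh15 and from -0.26 to 0.20 for Chrna1. The difference ranged from -1.13 to 0.01 for Myog, from -0.35 to 0.17 for Cdh15 (above 0 in 4 of 14 fits, among them 0.06 and 0.04) and from -0.31 to 2.82 for Myh3, and the log2 ratio of Pax7 to Myod1 after BaCl2 from -1.06 to 0.02. Mymk after BaCl2 was 0.20 with SMA libraries 1 and 2 left out together. In the pattern ranking, 4 of the top 10 genes stayed when genotype was centred too. The cause of these changes was not tested. Pax7, Myf5 and Mymx have too few counts for any but large differences to be detectable.

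Deviations of libraries with the same replicate number had correlations of 0.146, -0.161 and 0.159 after BaCl2, and 0.13, -0.079, 0.004 and 0.048 after glycerol. Those with different numbers ran from -0.206 to 0.098 and from -0.155 to 0.096. The highest value of each injury was thus between libraries of the same number, but some others of the same number were below 0. These values do not settle whether the numbers mark pairs. The numbers were not taken as pairs because the labels name no shared animal or day. With the replicate block, the calls over all genes were 1144 after BaCl2, 257 after glycerol and 1940 for the difference, with 0 of the 6 genes called in each. Myod1 was then 0.45 and Myog 0.99 after BaCl2. Among the list genes, the glycerol call for Dysf was lost with the block.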
